A study of Mus musculus with 18 samples.

Results

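The STAT transcription factors described here are *Stat2*, *Stat3*, *Stat4*, *Stat5a*, *Stat5b* and *Stat6* of mouse eosinophils, 6 genes among 55029 listed for 12 libraries and 54232 listed for another 6. They were chosen by name, through the Ensembl identifiers of these symbols. STAT proteins wait in the cytoplasm until a Janus kinase bound to a cytokine receptor phosphorylates them. They then pair, enter the nucleus and bind DNA, and several of them raise inhibitors of the SOCS family that act back on the kinase. In eosinophils, STAT5 acts behind the receptors of IL-5, IL-3 and GM-CSF, and STAT6 behind those of IL-4 and IL-13.

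The study set a type 2 stimulus, IL-4, against the type 1 stimuli IFN-γ and *E. coli*. Eosinophils were taken from the peritoneal cavity of NJ.1638 *Il5* transgenic mice of strain C57BL/6, so cells of every group, unstimulated ones included, had formed under an excess of IL-5. Beads carrying anti-Thy1.2 and anti-B220 were used against lymphocytes, and RNA of B cell markers was still counted. The 4 stimuli lasted 18 h each. They were IL-4 at 100 ng per ml, heat-inactivated *E. coli*, IFN-γ at 50 ng per ml, and IFN-γ at 50 ng per ml together with heat-inactivated *E. coli*. Each stimulus has 3 libraries, and 6 libraries come from unstimulated cells, named a to f. No time in culture is given for the unstimulated cells. The labels give no age, and they do not say that libraries of a group came from separate animals. The study's text calls them biological replicates, without giving a number of animals. The p-values here therefore measure only the spread between libraries.

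The libraries form 2 sets that differ in the genes listed. The first consists of the *E. coli*, IFN-γ and joint libraries with unstimulated a to c, with totals of 1523808 to 2734041 counts on genes. The other holds unstimulated libraries d to f and the IL-4 libraries, with 3625036 to 6482289 counts. The highest count of any gene was 4089 to 4095 per library in the former and 87377 to 191131 in the latter. The former stops just below 4096, the number of different sequences of 6 bases. Whether counts of the 2 sets are in the same unit was not tested. Among genes listed below as STAT5 targets, *Pim1* reached 3010 counts with *E. coli* and *Mcl1* 3084 with IFN-γ. Whether the limit near 4096 lowers high counts in the target and pathway lists, and so their changes, calls and medians, was not tested. Levels are given as CPM adjusted by TMM factors within a set (normalized CPM), and no level was compared across the sets except where all 6 unstimulated libraries were pooled as an alternative. With that pooling, any difference between the sets enters the change. The floor, 3 counts, stood at 1.10 to 1.97 CPM in the former set and 0.463 to 0.828 CPM in the latter, and it speaks to counting error alone. All 6 members passed the filter on low counts in both sets. *Stat4* was counted 7 to 44 times per library in the former set, *Stat5a* 12 to 26 times, and each of the other 4 members at least 99 times.

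Within their groups, unstimulated library e and, less so, joint library 3 stood apart. The SD of log2 differences was 0.75 between e and d and 0.67 between e and f, against 0.52 between d and f and 0.39 to 0.47 among the IL-4 libraries. *Stat2*, *Stat3*, *Stat5b* and *Stat6* were highest in e among libraries d to f, and *Stat4* and *Stat5a* were lowest there. Changes of members and counts of pathway lists with IL-4 are therefore given with and without it. Joint library 3 was at 0.62 and 0.55 from joint libraries 1 and 2, which were at 0.44 from each other, and without it the rise of *Stat5b* with both stimuli went from 0.59 to 0.31 on the log2 scale.

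Markers of eosinophils were present at uneven levels, to be read within each set. Their summed level over 10 genes was 4294 ± 705 normalized CPM (SD, n = 3) in unstimulated libraries a to c and 5466 ± 447 in d to f, with *Alox15* or *Ccr3* the most abundant. It was 3366 ± 234 under *E. coli*, 4012 ± 419 under IFN-γ, 3076 ± 191 in the joint libraries and 5102 ± 102 under IL-4. In libraries a to c *Alox15* was counted 3197 to 3732 times and *Ccr3* 2690 to 3295 times, in a set that stops below 4096. Differences of this sum within the first set may therefore follow library totals in part and need not be differences in RNA. Of 6 eosinophil markers tested in the first set, 2, 4 and 4 were lower and 1, 0 and 1 higher with *E. coli*, IFN-γ and both, *Siglecf* falling by 0.68, 0.70 and 1.55 on the log2 scale, and with IL-4 4 of 10 were higher and 1 lower. *Siglecf* was counted 1841 to 2556 times in libraries a to c and 483 to 587 times in the joint ones. Whether the limit near 4096 lowers the former counts, and so these falls, was not tested. The granule genes *Epx* and *Prg3* never passed 4 counts in a library of the first set, and *Epx* was at 0 in 5 of its 12 libraries. Of the 9 T cell markers, *Cd3d* was the most abundant, at 8.14 normalized CPM or less, and *Cd3e* was at 0 in 10 of 12 and 5 of 6 libraries. The 6 NK cell markers summed to 4.45 normalized CPM or less, and *Klrb1c* was at 0 in all 18 libraries. Dendritic cell markers, 5 genes, summed to 16.5 or less, at 5.81 ± 1.87 without and 12.2 ± 4.58 with IL-4, where *Xcr1* rose by 1.34 on the log2 scale (adjusted p = 0.0391) and DESeq2 called none of them. The 9 macrophage and monocyte markers summed to 4466 ± 580 in libraries a to c and 3676 ± 597, 5552 ± 456 and 5393 ± 422 normalized CPM with *E. coli*, IFN-γ and both, led by *Ly6c2*, and none was at 0 in any library. *Ly6c2* was counted 4029 to 4083 times in libraries a to c, close to 4096, so its level there may follow library totals and differences of this sum between groups need not be differences in RNA. Of the 9, 1 was lower under *E. coli*, 4 were higher and 1 lower under IFN-γ, and 2 were higher in the joint libraries, *Ly6c2* not among them, with *Lyz2* falling by 0.91 under *E. coli* and *C1qb* rising by 1.04 under IFN-γ on the log2 scale. In the other set they summed to 27380 ± 715 without and 26640 ± 514 with IL-4, most of it *Ly6c2*, at 22920 ± 704 and 23470 ± 710, while 4 of the 9 were lower with IL-4 and none higher, *Adgre1* falling by 0.80 on the log2 scale. *Adgre1* and *Ly6c2*, on this list, are known in eosinophils too.

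Markers of other cell types differed between groups in their summed levels. The 6 B cell markers, led by *Ighm*, summed to 170.2 ± 50.8 normalized CPM in libraries a to c (SD, n = 3), 53.7 ± 19.8 under *E. coli*, 70.1 ± 21.6 under IFN-γ and 125 ± 4.64 in the joint libraries, and to 27.6 ± 7.29 without and 59.1 ± 4.93 with IL-4. All 4 tested in the first set were lower under *E. coli*, by 1.43 to 1.82 on the log2 scale, and under IFN-γ, by 1.22 to 1.43, and all 3 tested with IL-4 were higher, by 0.90 to 1.76. The 8 neutrophil markers, led by *Retnlg*, summed to 595 ± 76.8, 363 ± 32.9, 675 ± 54.5 and 382 ± 48.1 in the same order, and to 1864 ± 171 without and 770 ± 38.8 with IL-4, while *Elane* was at 0 in 9 of the 12 libraries of the first set. Genes of this list did not move together. With *E. coli* *Retnlg* fell by 1.02 on the log2 scale and *S100a8* rose by 3.06, and with IFN-γ *Ly6g* rose by 2.27 and *S100a8* by 2.20. The 7 mast cell and basophil markers, led by *Tpsb2* or *Cma1*, which *Cpa3* equalled in library d, summed to 8.73 ± 1.31, 16.9 ± 15.2, 19.1 ± 9.48 and 57.3 ± 18.9, and to 7.40 ± 0.799 and 15.5 ± 6.42 beside IL-4. The tested ones, *Tpsb2* and *Cma1*, were called higher in the joint libraries, by 2.65 and 3.45 on the log2 scale, and with no other stimulus. *Mcpt8* was at 0 in 12 of 12 and 5 of 6 libraries. These marker changes belong to the same comparisons as every target and pathway list below. The part of these cells in the results for STAT genes and for those lists was not tested. In bulk RNA fewer cells of a type and less RNA per cell cannot be told apart.

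At least 1 STAT gene was called with each stimulus. The comparisons used the quasi-likelihood test of edgeR, adjusted by Benjamini-Hochberg over all genes tested, at an adjusted p under 0.05, and the 3 comparisons of the first set share their unstimulated libraries. With *E. coli*, 1 of 6 members was higher, where 13.6% of 9883 tested genes were, and 2 were lower, where 16.5% were. With IFN-γ, 4 members were higher and 1 was lower, beside 15.5% and 15.9% of all genes. IFN-γ with *E. coli* gave 4 higher and no lower members, beside 23.7% and 25.1%. With IL-4, *Stat2* alone was higher and no member was lower, beside 5.97% and 4.39% of 10556 genes, and at an unadjusted p under 0.05, or by DESeq2, the count was also 1. *Stat5a* was called in none of the 4 comparisons.

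**Figure D1:**
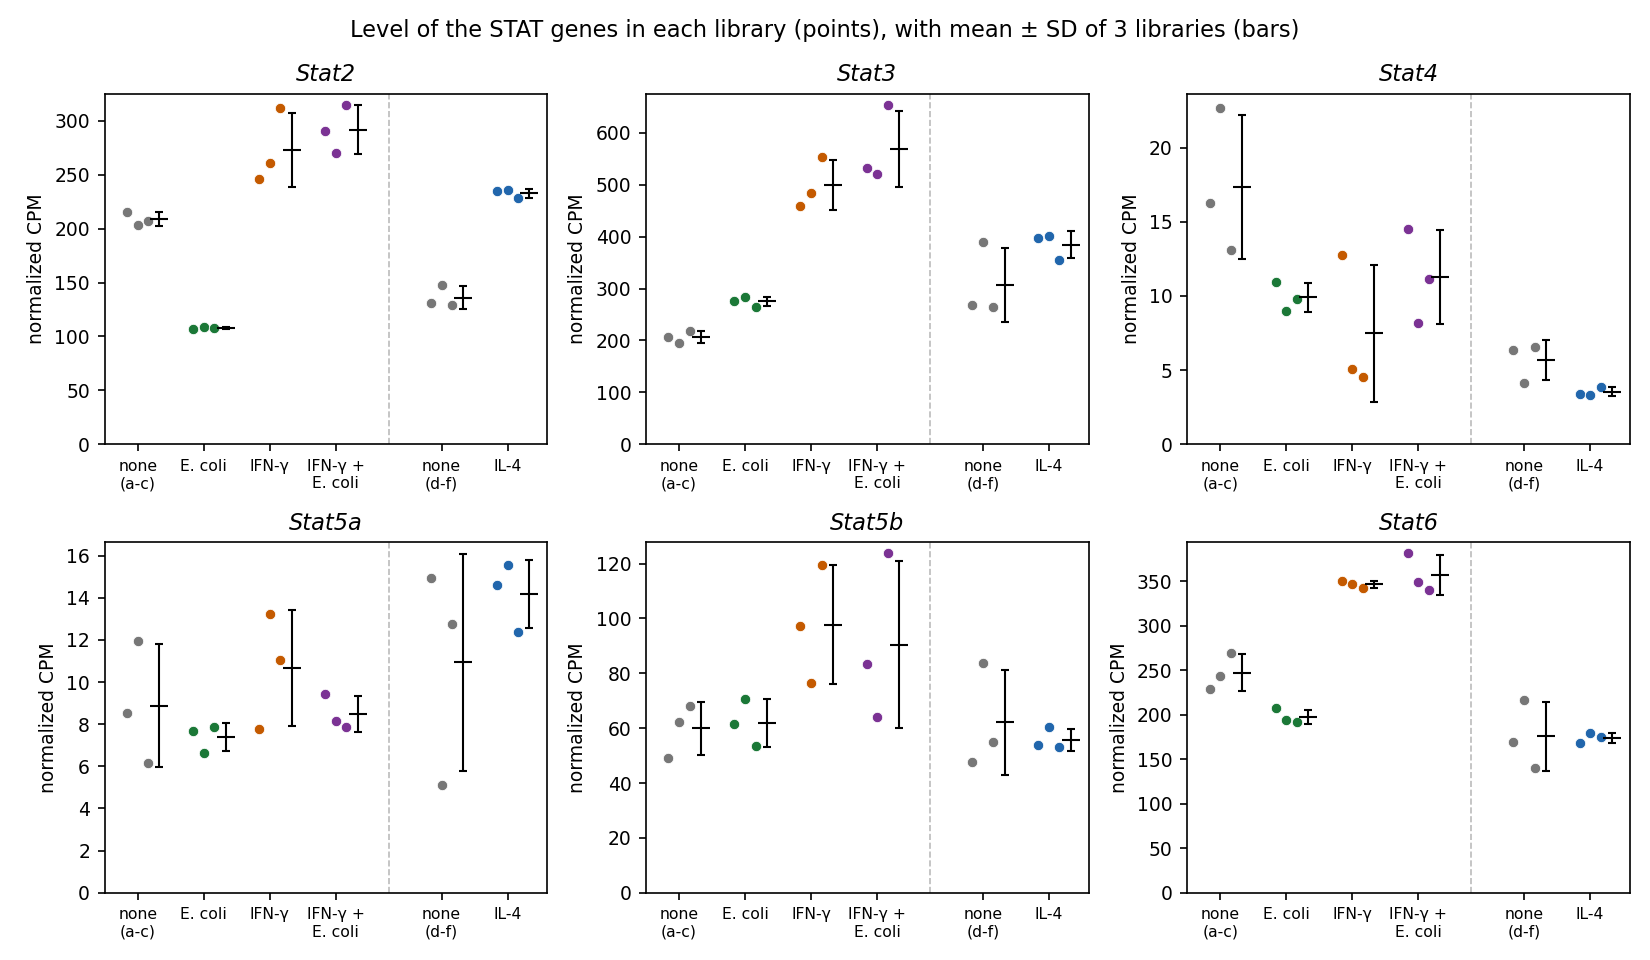
Normalized CPM of the 6 STAT genes in each of the 18 libraries, grouped by stimulus on the horizontal axis, with a dashed line between the 2 sets of libraries. Points are libraries and bars are the mean ± SD of 3 libraries; *Stat2* sat near 108 in every *E. coli* library and *Stat3* reached 653 with both stimuli.

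*Stat2* fell with *E. coli* and rose with the other 3 stimuli. STAT2 carries the signal of type I and III interferons and joins IRF9 in the complex ISGF3. Its level was 216, 203 and 207 normalized CPM in unstimulated libraries a, b and c. With *E. coli* it was 107, 109 and 108 normalized CPM. IFN-γ libraries held 246, 261 and 312 normalized CPM. With IFN-γ and *E. coli* the level was 291, 270 and 315 normalized CPM. Every *E. coli* library was thus below, and every library with IFN-γ above, all unstimulated ones, and the groups with IFN-γ overlapped each other. The unstimulated libraries d, e and f of the other set held 131, 148 and 129 normalized CPM. With IL-4 the level was 235, 236 and 228 normalized CPM, and those groups did not overlap.

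Against its unstimulated libraries, *Stat2* fell by 0.95 on the log2 scale with *E. coli* (SE 0.11, a fold of 0.518, adjusted p = 7.38e-07, edgeR's quasi-likelihood test). With IL-4 it rose by 0.78 (SE 0.12, a fold of 1.71, adjusted p = 0.00196), and by 0.84 (SE 0.099, adjusted p = 2.88e-05) without library e. The rise with IFN-γ was 0.38 (SE 0.11, adjusted p = 0.00857), and with both stimuli 0.48 (SE 0.11, adjusted p = 0.000755). Leaving out IFN-γ library 3, its highest, gave 0.29 and an adjusted p of 0.0651, and scaling by library totals, chosen after seeing the data, gave 0.21 (adjusted p = 0.116) with IFN-γ and 0.23 (adjusted p = 0.0628) with both. The decrease with *E. coli* and the rise with IL-4 were called under each alternative run other than a threshold of a factor of 2.

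*Stat2* was the only member called in the test of whether the response to both stimuli equals the sum of the single log2 responses. *E. coli* took it down by 0.95 on the log2 scale in cells without IFN-γ and moved it by 0.097 in cells with IFN-γ. The difference of these effects was 1.05 (SE 0.15, adjusted p = 0.000227 in edgeR's quasi-likelihood test), in a comparison that called 4.92% of all genes and 1 of 6 members. The 4 tested B cell markers, *Cd79a*, *Cd79b*, *Ms4a1* and *Ighm*, were called there in the same direction, at 2.32 to 2.92. At an unadjusted p under 0.05 the count was 3 members. *Stat4* had an interaction of 1.33 (SE 0.48) and *Stat6* one of 0.37 (SE 0.14, adjusted p = 0.170), neither called, and without IFN-γ library 1 *Stat4* was called at 1.95 (adjusted p = 0.0251).

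Targets of ISGF3 were listed as 20 genes, all tested. With *E. coli*, where *Stat2* fell, 15 of 20 were lower and 5 were not called, with a median log2 change of −0.60 against −0.024 over all genes tested. *Ifit2*, an antiviral gene that binds viral RNA, fell by 1.77 on the log2 scale and the antiviral GTPase gene *Mx1* by 1.65. Among all genes 16.5% were lower with *E. coli*, and the 4 tested B cell markers were lower too. With IFN-γ, where *Stat2* rose, 3 were higher and 4 lower (median 0.069 against −0.033 over all genes), beside 15.5% and 15.9% of all genes. *Ifit2* rose by 0.98 and *Oas1a* fell by 0.80, while the 4 tested B cell markers were lower. With both, where *Stat2* rose too, 7 were higher and 5 lower (median 0.12 against −0.040), beside 23.7% and 25.1% of all genes. The 4 tested B cell markers were not called there. With IL-4, where *Stat2* rose, 6 were higher and 14 not called (median 0.33 against 0.00056), beside 5.97% of all genes higher. *Isg20* rose by 0.81 and *Isg15* by 0.78. Without library e 10 were higher and 0 lower, beside 822 and 603 of 10893 genes. The 3 B cell markers tested with IL-4 were higher as well. *Irf9*, the partner of STAT2 in ISGF3, was not called with any of the 4 stimuli, with log2 changes of 0.089, 0.10, 0.10 and −0.020 in the order *E. coli*, IFN-γ, both and IL-4.

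*Stat3* rose under *E. coli*, IFN-γ and their mixture. STAT3 carries signals of the IL-6 and IL-10 families. Unstimulated libraries a, b and c held 206.5, 195 and 219 normalized CPM. With *E. coli* the level was 277, 284 and 265 normalized CPM. In IFN-γ libraries it was 459, 485 and 553 normalized CPM. Each of these groups lay wholly above the one before. With both stimuli *Stat3* was at 533, 521 and 653 normalized CPM, a range that overlapped IFN-γ alone. In unstimulated libraries d, e and f it was 268.5, 389 and 264 normalized CPM, library e standing far above its pair. With IL-4 it was 397, 401 and 354 normalized CPM, above d and f in each library and overlapping e.

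With IFN-γ *Stat3* rose by 1.27 on the log2 scale (SE 0.11, a fold of 2.41, adjusted p = 1.33e-08 in edgeR's quasi-likelihood test). With both stimuli the rise was 1.46 (SE 0.11, a fold of 2.75, adjusted p = 5.11e-10), and both were called under each alternative run. With *E. coli* it was 0.41 (SE 0.11, a fold of 1.33, adjusted p = 0.00785). Pooling all 6 unstimulated libraries, d to f included, turned this value to −0.14 (adjusted p = 0.711). The pooled value also holds any difference between the 2 sets. With IL-4 the change was 0.32 (SE 0.16, adjusted p = 0.237), not called, and without library e it was 0.53 (SE 0.099, adjusted p = 0.00172).

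Of 18 listed STAT3 targets 17 were tested in the first set. With *E. coli* 10 were higher and 2 lower (median 0.51), with IFN-γ 7 higher and 4 lower (0.50), and with both 13 higher and 2 lower (0.88). Over all genes 13.6%, 15.5% and 23.7% were higher and 16.5%, 15.9% and 25.1% lower in the same order. Their medians were −0.024, −0.033 and −0.040. *Vegfa*, the angiogenic growth factor, rose from 20.7 ± 4.42 normalized CPM to 113 ± 7.89 under *E. coli*, 424 ± 116 under IFN-γ and 1095 ± 103 in the joint libraries (SD, n = 3), while *Fos* fell by 1.81 on the log2 scale with *E. coli* and *Lcn2* by 1.30 with IFN-γ. With IL-4, 3 of 16 tested targets were higher and 5 lower (median −0.12), *Timp1* rising by 1.43 and *Lcn2* falling by 2.42, and without library e 3 of 17 were higher and 6 lower (−0.19). Over all genes 5.97% were higher and 4.39% lower with IL-4, and without library e 822 and 603 of 10893 genes.

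*Stat4* was scarce, and within the first set its mean was lowest with IFN-γ. STAT4 acts behind the receptors of IL-12 and IL-23 and is best known in T and NK cells. Its level was 16.3, 22.7 and 13.1 normalized CPM in unstimulated libraries a, b and c. With *E. coli* it was 10.9, 8.97 and 9.81 normalized CPM, and with IFN-γ 12.8, 5.09 and 4.55. Libraries of both these groups lay below every unstimulated one, IFN-γ library 1 by only 0.34. With both stimuli *Stat4* was at 14.5, 8.16 and 11.1 normalized CPM, overlapping the unstimulated group. Libraries d, e and f held 6.36, 4.12 and 6.58 normalized CPM. The IL-4 libraries held 3.41, 3.31 and 3.87, just below them.

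The decrease of *Stat4* with IFN-γ was −1.16 on the log2 scale (SE 0.33, a fold of 0.447, adjusted p = 0.0105 in edgeR's quasi-likelihood test). It was no longer called without unstimulated library b (−0.94, adjusted p = 0.0532), IFN-γ library 2 (−0.89, adjusted p = 0.0776) or IFN-γ library 3 (−0.93, adjusted p = 0.0628), or with all 6 unstimulated libraries pooled (−0.66, adjusted p = 0.277). With *E. coli* the change was −0.78 (SE 0.30, adjusted p = 0.0539), not called, and −0.94 (adjusted p = 0.0383) without unstimulated library c. It was called at −0.75 (adjusted p = 0.0313) when only the 6 libraries compared were used. In the joint comparison it was −0.61 (SE 0.32, adjusted p = 0.118), called at −0.86 (adjusted p = 0.0299) on library totals, and with IL-4 −0.68 (SE 0.34, adjusted p = 0.241), or −0.88 (SE 0.36, adjusted p = 0.135) without library e. Pooling all 6 unstimulated libraries called the change with IL-4 at −1.35 (adjusted p = 0.0421). Counts this low leave wide intervals, from −1.43 to 0.067 for IL-4. Of 9 listed STAT4 targets 4 were tested, of which 2 were higher and 1 lower with *E. coli* (median 0.54), 1 higher with IFN-γ (0.25), 3 higher and 1 lower with both (0.71) and 1 higher with IL-4 (0.033, or 0.25 without library e, again with 1 higher). *Il18rap*, a chain of the IL-18 receptor, rose by 1.5, 0.92 and 1.51 on the log2 scale in the first 3 of these. Over all genes 13.6%, 15.5%, 23.7% and 5.97% were higher with *E. coli*, IFN-γ, both and IL-4. In the same order 16.5%, 15.9%, 25.1% and 4.39% were lower.

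*Stat5a* and *Stat5b* encode the factors behind the receptors of IL-5, IL-3 and GM-CSF, and per kb of exon *Stat5b* was the higher in every library. *Stat5b* was at 49.2, 62.3 and 68.1 normalized CPM in unstimulated libraries a, b and c. With *E. coli* it was 61.6, 70.7 and 53.4 normalized CPM, overlapping the unstimulated group. IFN-γ libraries held 97.3, 76.4 and 120 normalized CPM, all above the unstimulated ones. With both stimuli the level was 83.4, 64.2 and 124 normalized CPM, and its lowest library overlapped them. Libraries d, e and f held 47.6, 83.6 and 55.1 normalized CPM. With IL-4 it was 53.8, 60.4 and 53.2 normalized CPM, within their range. *Stat5a* ranged from 6.15 to 13.2 normalized CPM in the first set and its groups overlapped the unstimulated one throughout. In the other set it was 14.9, 5.11 and 12.8 normalized CPM without and 14.6, 15.6 and 12.4 with IL-4, library e being the low value.

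With IFN-γ *Stat5b* rose by 0.70 on the log2 scale (SE 0.22, adjusted p = 0.0247 in edgeR's quasi-likelihood test). The call was lost without unstimulated library a (0.57, adjusted p = 0.114), unstimulated library b (0.76, adjusted p = 0.0523), IFN-γ library 1 (0.71, adjusted p = 0.0583) or IFN-γ library 3 (0.55, adjusted p = 0.102). It was also lost on library totals (0.53, adjusted p = 0.0642) and with all 6 unstimulated libraries pooled (0.49, adjusted p = 0.140). With both stimuli *Stat5b* rose by 0.59 (SE 0.22, adjusted p = 0.0397). That call was lost without unstimulated library a (0.46) or b (0.64), or without joint library 1 (0.67) or 3 (0.31), where the adjusted p was 0.0594 to 0.204, and on library totals (0.34, adjusted p = 0.198), at 10 or more counts in every library (0.53, adjusted p = 0.0581) and on 6 pooled unstimulated libraries (0.40, adjusted p = 0.186). Its changes with *E. coli* (0.064, SE 0.22) and IL-4 (−0.16, SE 0.20) were not called, and without library e the change with IL-4 was 0.11 (SE 0.14), of the other sign and not called. *Stat5a* had log2 changes of −0.22, 0.32, −0.024 and 0.41 in the order *E. coli*, IFN-γ, both and IL-4, with SEs of 0.30 to 0.34, none of it called, and the 95% interval ran from −0.85 to 0.40 with *E. coli* and from −0.34 to 1.16 with IL-4. Without library e the change with IL-4 was 0.047 (SE 0.23).

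STAT5 targets were listed as 14 genes, all tested. With *E. coli*, 9 were higher and 1 lower (median 0.69), led by the survival kinase gene *Pim2*, which rose by 2.59 on the log2 scale. With IFN-γ, where *Stat5b* rose, 1 was higher and 7 lower (median −0.40), *Id1* falling by 1.52 and *Pim2* by 1.32. With both, 7 were higher and 4 lower (0.39), and with IL-4 4 were higher and 10 not called (0.20), *Ccnd2*, which drives the cell cycle, rising by 1.30. Without library e 4 were higher and 1 lower with IL-4 (0.12). Over all genes 13.6%, 15.5%, 23.7% and 5.97% were higher with *E. coli*, IFN-γ, both and IL-4. In the same order 16.5%, 15.9%, 25.1% and 4.39% were lower.

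*Stat6* fell slightly under *E. coli*, rose under IFN-γ with or without bacteria, and was not called with IL-4, the cytokine whose receptors it serves. Its level was 229, 244 and 269 normalized CPM in unstimulated libraries a, b and c. With *E. coli* it was 207, 194 and 192 normalized CPM. IFN-γ libraries held 350, 347 and 342 normalized CPM. These 3 groups did not overlap. With both stimuli *Stat6* was at 382, 349 and 340 normalized CPM, overlapping IFN-γ alone. Libraries d, e and f held 170, 217 and 140 normalized CPM. The IL-4 libraries held 168, 179 and 174.5, all inside that range.

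The rise of *Stat6* was 0.49 on the log2 scale with IFN-γ (SE 0.10, a fold of 1.40, adjusted p = 0.000727 in edgeR's quasi-likelihood test) and 0.53 with both (SE 0.10, adjusted p = 0.000164). With *E. coli* it fell by 0.32 (SE 0.10, adjusted p = 0.0180). That call was lost without unstimulated library c (−0.25, adjusted p = 0.10), *E. coli* library 2 (−0.30, adjusted p = 0.0811) or *E. coli* library 3 (−0.30, adjusted p = 0.0683). It was also lost with no filter on low counts (−0.28, adjusted p = 0.110) and with all 6 unstimulated libraries pooled (−0.26, adjusted p = 0.140). With IL-4 the change was −0.013 (SE 0.16, 95% interval −0.36 to 0.33, adjusted p = 0.969), and 0.17 (SE 0.11, adjusted p = 0.371) without library e.

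Some STAT6 targets were higher with IL-4 although *Stat6* mRNA was not called. Of 22 listed genes 19 were tested, of which 11 were higher, 1 lower and 7 not called (median 1.31), beside 5.97% higher and 4.39% lower among all genes. Without library e 14 were higher and 1 lower, beside 822 and 603 of 10893 genes. A gene near 0 without IL-4 passes the filter on low counts only where IL-4 raises it, so these numbers rest in part on the filter. Of the 19, 15 had 3 or more counts in each of libraries d to f, a limit chosen after seeing the data, and of these 8 were higher, 1 lower and 6 not called (median 0.85), beside 587 higher and 463 lower among 10313 such genes. *Pparg*, a lipid-sensing nuclear receptor, was at 5.26 ± 1.81 normalized CPM with IL-4 (SD, n = 3) against 0.147 ± 0.139, and the chemokine gene *Ccl17* at 6.17 ± 2.94 against 0.383 ± 0.109. Both means without IL-4 lie under the level of 3 counts. *Retnla* fell by 0.57 on the log2 scale. In the first set 12 were tested, of which 3 were higher with *E. coli* (median −0.097), 4 with IFN-γ (0.68), and 8 with both, where 1 was lower (1.23). *Klf4* rose by 2.94 with IFN-γ and 3.20 with both, and *Tgm2* by 2.68 and 2.93. Whether the upper limit of counts in the first set narrows changes of abundant genes in this list was not tested.

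**Figure D2:**
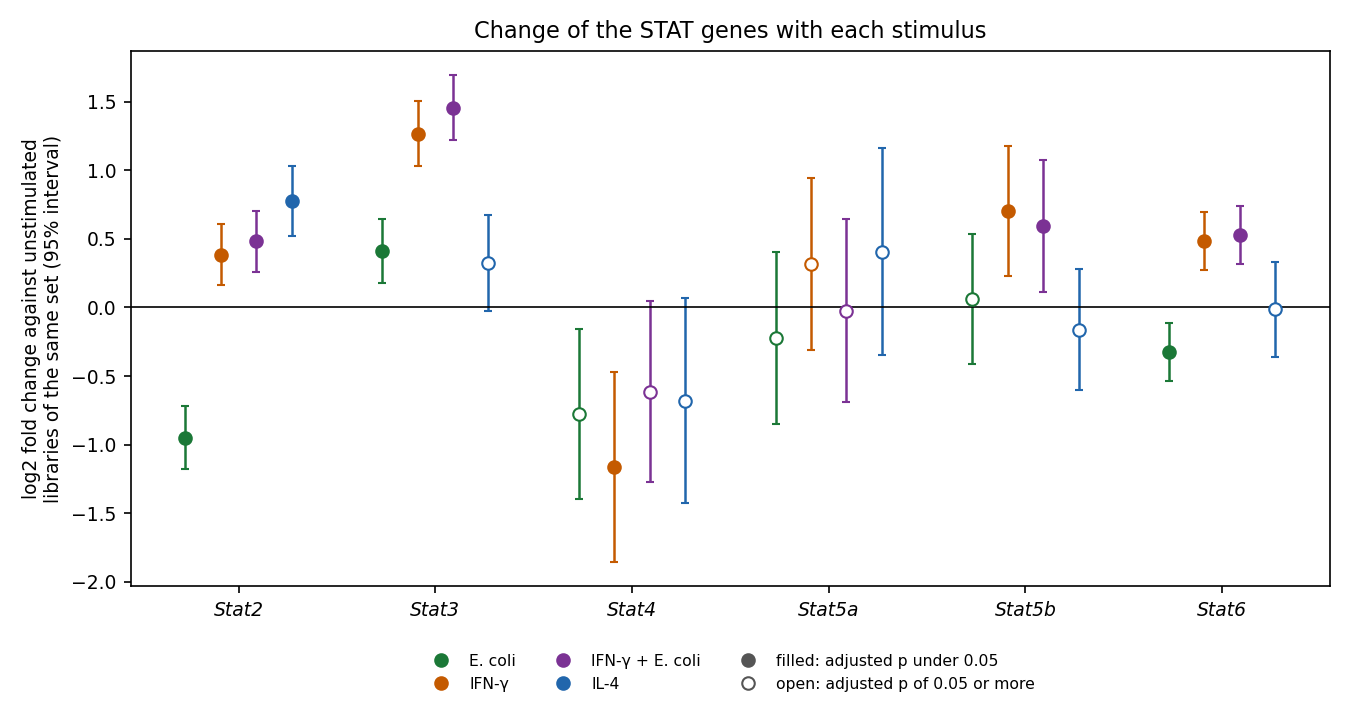
Log2 fold change of each STAT gene with each stimulus against the unstimulated libraries of the same set, with 95% intervals as bars. Filled points had an adjusted p under 0.05; *Stat3* rose by 1.27 with IFN-γ and *Stat2* fell by 0.95 with *E. coli*, while no *Stat5a* point is filled.

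Scaling matters for the stimuli with IFN-γ. On library totals the median log2 change of all genes tested moved from −0.033 to −0.20 with IFN-γ and from −0.040 to −0.29 with both, and the share of called genes that were higher from 49.3% to 28.9% and from 48.6% to 29.7%. On that scale *Stat3* still rose by 1.09 and 1.2, *Stat6* by 0.31 and 0.28, and *Stat4* changed by −1.33 and −0.86 with IFN-γ and with both. No sign of a member that was called with these stimuli flipped under the scalings tried. Scaling moves all genes about alike, and by less than each called change, so the absence of flips decides nothing.

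Stimuli of the first set were also compared with each other. Against IFN-γ alone, IFN-γ with *E. coli* called 0 of 6 members by edgeR's quasi-likelihood test, 0 at an unadjusted p under 0.05 and 0 by DESeq2, where 12.2% of all genes were called. The member changes ran from −0.34 for *Stat5a* to 0.55 for *Stat4*, and for *Stat2* the 95% interval was −0.12 to 0.32. Against *E. coli* alone, IFN-γ with *E. coli* gave 3 of 6 members called, all higher, beside 32.8% of all genes. *Stat2* was higher by 1.43 (SE 0.11, adjusted p = 9.12e-10), *Stat3* by 1.05 (SE 0.11, adjusted p = 1.41e-07) and *Stat6* by 0.85 (SE 0.10, adjusted p = 7.03e-07). *Stat5b* was at 0.53 (SE 0.22, adjusted p = 0.0803) and was called at 0.74 (adjusted p = 0.0130) without joint library 2 and at 0.49 (adjusted p = 0.00891) with no filter on low counts, but was at 0.22 (adjusted p = 0.415) without joint library 3 and at 0.29 (adjusted p = 0.290) on library totals. IFN-γ against *E. coli* gave 4 of 6 members called, all higher, beside 25.6% of all genes, *Stat2* by 1.33, *Stat3* by 0.86, *Stat6* by 0.81 and *Stat5b* by 0.64 (SE 0.22, adjusted p = 0.0418). The call of *Stat5b* was lost without *E. coli* library 1 (0.63) or 3 (0.55), or IFN-γ library 1 (0.64) or 3 (0.48), at adjusted p-values of 0.0964 to 0.174.

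The response to IL-4 was also set against each of the others. The difference of responses was tested in a fit of all 18 libraries, each response against the unstimulated libraries of its own set, over 10671 genes. Relative to IFN-γ, 3 of 6 members were lower, beside 27.6% of all genes called. *Stat3* differed by −0.98 (SE 0.19, adjusted p = 0.000389), *Stat5b* by −0.90 (SE 0.31, adjusted p = 0.0375) and *Stat6* by −0.53 (SE 0.18, adjusted p = 0.0267). Relative to *E. coli*, *Stat2* alone was called, higher by 1.71 (SE 0.15, adjusted p = 1.31e-08), beside 28% of all genes. Relative to both stimuli, *Stat3* was at −1.2 (SE 0.19, adjusted p = 2.27e-05), *Stat5b* at −0.81 (SE 0.32, adjusted p = 0.0474) and *Stat6* at −0.60 (SE 0.18, adjusted p = 0.00906), 3 of 6 members beside 38.9% of all genes. DESeq2 called 2 of 6 there, *Stat5b* not among them (−0.82, adjusted p = 0.0636).

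Several of those differences for *Stat5b* and *Stat6* were lost without single libraries, and on library totals none of the 4 was called. *Stat6* relative to both stimuli was called without any 1 library, and on library totals it was at −0.22 (adjusted p = 0.293). Against IFN-γ, *Stat5b* was not called without unstimulated library a (−0.77), b (−0.93) or e (−0.63), IFN-γ library 1 (−0.92) or 3 (−0.74), or IL-4 library 1 (−0.88) or 3 (−0.87), nor on library totals (−0.62) or at 10 or more counts in every library (−0.78). Against both stimuli it was not called without unstimulated library a (−0.68), b (−0.84) or e (−0.54), joint library 1 (−0.87) or 3 (−0.50), or any 1 of the IL-4 libraries (−0.78 to −0.88), nor on library totals (−0.43), at 10 or more counts in every library (−0.65), with DESeq2 size factors (−0.81) or with counts corrected for repeated identifiers (−0.77). *Stat6* against IFN-γ was not called without unstimulated library a (−0.48) or e (−0.35) or IL-4 library 1 (−0.51), on library totals (−0.26), with no filter (−0.52) or at 10 or more counts in every library (−0.41). *Stat6* against *E. coli*, at 0.29, was called without library e (0.48, adjusted p = 0.0193). *Stat2* against IFN-γ, at 0.36 (adjusted p = 0.0801), was called without IFN-γ library 3 (0.46) or unstimulated library e (0.42). The differences of *Stat3* from IFN-γ and from both stimuli were called in each of these runs, and that from *E. coli* was not called in any.

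Within the first set, the mean level of *Stat2* ran from *E. coli* through the unstimulated group and IFN-γ to both stimuli, a 2.7-fold range, and only the last pair overlapped. *Stat3* ran from unstimulated through *E. coli* and IFN-γ to both over a 2.75-fold range, again with overlap only in the last pair. The order for *Stat6* was the same as for *Stat2*, over a 1.81-fold range, with IFN-γ and both overlapping. *Stat4* ran from IFN-γ through *E. coli* and both to unstimulated over a 2.32-fold range, and *Stat5b* from unstimulated through *E. coli* and both to IFN-γ over 1.63-fold, and each neighbouring pair of either gene overlapped. *Stat5a* ran from *E. coli* through both and unstimulated to IFN-γ over 1.44-fold, and only the lowest pair failed to overlap, by 0.013 normalized CPM.

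The order of the members depends on the scale. Per kb of annotated exon, *Stat6* was the highest member in unstimulated libraries a to c at 56.2 ± 4.65 normalized CPM per kb (SD, n = 3). *Stat2* followed at 35.2 ± 1.07, *Stat3* at 21.7 ± 1.23, *Stat5b* at 10.8 ± 1.75, *Stat4* at 4.48 ± 1.26 and *Stat5a* at 1.24 ± 0.410 normalized CPM per kb, with no overlap between neighbours. *Stat3* passed *Stat2* in each stimulated group of this set, at 28.9 ± 0.984 against 18.2 ± 0.136 normalized CPM per kb under *E. coli*, 52.4 ± 5.07 against 46.1 ± 5.79 under IFN-γ, where they overlapped, and 59.7 ± 7.66 against 49.3 ± 3.81 in the joint libraries. *Stat6* reached 78.7 ± 0.899 with IFN-γ and 81.1 ± 4.99 with both, the highest on this scale. In libraries d to f *Stat6*, at 39.9 ± 8.83 normalized CPM per kb, and *Stat3*, at 32.3 ± 7.43, overlapped. With IL-4, *Stat3*, *Stat6* and *Stat2* stood close together at 40.3 ± 2.73, 39.5 ± 1.27 and 39.3 ± 0.699 normalized CPM per kb. CEL-Seq2, the protocol of the study's methods, reads 3′ ends, so counts need not rise with length. Without division by length *Stat3* was above *Stat6* in every stimulated group, at 499 ± 48.3 against 346 ± 3.96 normalized CPM with IFN-γ and 384 ± 26 against 174 ± 5.57 with IL-4, and *Stat6* was the highest member in libraries a to c, at 247 ± 20.5.

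The genes most like each member were found by the root mean square difference of the 4 log2 changes against unstimulated cells, among 4994 genes of at least 20 normalized CPM in both sets, or 4995 for *Stat4* and *Stat5a*. For *Stat2* they were *Gadd45g* (0.094), *Tut4* (0.13) and *Uba7* (0.15), where the median gene was at 0.80. *Stat3* was closest to *Wsb1* (0.057), *Dusp6* (0.069) and *Nfil3* (0.12), against a median of 1.00. *Stat6* was closest to *Stag2* (0.051), *Adipor1* (0.070) and *Fnip1* (0.080). For *Stat5b* the closest were *Retreg2* (0.047), *Numb* (0.062) and *D17Wsu92e* (0.077), and for *Stat5a* *Rab12* (0.048), *Crbn* (0.066) and *Klf13* (0.086). *Stat4* had no gene closer than *Ifi27l2a* (0.31), *Tspan17* (0.31) and *Rab1b* (0.33). Among the members themselves, *Stat5b* and *Stat6* were closest at 0.24 and *Stat3* and *Stat4* farthest apart at 1.78.

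The rest of the pathway was followed in lists drawn up by role. Medians of all genes tested, given above as −0.024, −0.033, −0.040 and 0.00056 for *E. coli*, IFN-γ, both and IL-4, are the base for each list, and so are the shares of all genes called, 13.6%, 15.5%, 23.7% and 5.97% higher and 16.5%, 15.9%, 25.1% and 4.39% lower in the same order. For each list with IL-4 without library e the base is 822 higher and 603 lower of 10893 genes, with a median of 0.0099. Of 25 ligands of STAT-coupled receptors 12 were tested in the first set, and 9 were higher with *E. coli* (median 0.87), 4 with IFN-γ (0.23) and 10 with both (1.51), the rest not being called. Among the 11 with 3 or more counts in each of libraries a to c, 9 were higher under *E. coli* (0.73), 3 under IFN-γ (0.23) and 9 in the joint libraries (1.28). *Il13*, which signals to STAT6, rose from 10.1 ± 5.56 to 195 ± 12.1 normalized CPM with *E. coli* (SD, n = 3), and *Il6*, which signals to STAT3, from 19.7 ± 4.35 to 488 ± 69.8 with both. With IL-4, 1 of 10 tested ligands was higher and 2 were lower (median −0.14), *Il6* rising by 2.24 and *Il13* falling by 1.67 on the log2 scale, and without library e 1 of 11 was higher and 2 lower, with a median of 0.024.

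Of 32 receptor chains 25 were tested. With *E. coli* 7 were higher and 3 lower (median 0.27), with IFN-γ 7 and 3 (0.14), with both 10 and 4 (0.24), and with IL-4 4 and 1 (0.11), or 4 and 2 (0.052) without library e. Among the 24 with 3 or more counts in each of libraries a to c, 7 were higher under *E. coli* (0.25), 6 under IFN-γ (0.11) and 9 in the joint libraries (0.24), and as many were lower as among the 25. *Il4ra*, whose product signals to STAT6, was at 111 ± 7.45 normalized CPM unstimulated and 239 ± 10.6 with *E. coli* (SD, n = 3), a rise of 1.10 on the log2 scale, and was not called with IL-4 (−0.075, SE 0.14). *Il13ra1* rose by 3.38 with IFN-γ, 3.30 with both and 1.26 with *E. coli*. *Ifnar2*, a chain of the type I interferon receptor that binds STAT2, rose by 0.86 with IFN-γ and 0.90 with both. *Ifngr1* fell by 0.56 with both and rose by 0.56 with IL-4, and *Ifngr2* rose by 0.57 with *E. coli* and 0.34 with both. *Il5ra*, which encodes a chain of the IL-5 receptor, fell by 1.35, 0.37 and 1.28 with *E. coli*, IFN-γ and both and rose by 0.60 with IL-4.

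The 4 Janus kinases, which phosphorylate STAT proteins, gave 4 calls over the 4 stimuli. *Tyk2* fell by 0.48 with *E. coli* and 0.66 with both, *Jak2* fell by 0.32 with *E. coli* and rose by 0.57 with IL-4, and *Jak1* and *Jak3* were not called with any of the 4 stimuli. List medians were −0.37, −0.024, 0.010 and 0.27 in the order *E. coli*, IFN-γ, both and IL-4, and without library e 1 was higher with IL-4 (0.43). With IFN-γ 0 of 4 were called by edgeR's quasi-likelihood test and by DESeq2, and 1 had an unadjusted p under 0.05. DESeq2 also called 0 with *E. coli*. Of 10 partners and co-regulators 9 were tested, of which 1 was higher and 1 lower with *E. coli* (median 0.089), 2 higher with IFN-γ (0.12), 3 higher and 1 lower with both (0.28) and 1 higher with IL-4 (−0.011), or 2 (−0.044) without library e. *Nmi*, whose product binds STAT proteins, rose by 0.76 with IFN-γ, 1.02 with both and 0.81 with IL-4.

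Inhibitors of JAK-STAT signalling were 20 genes, all tested. With *E. coli* 7 were higher (median 0.23), with IFN-γ 2 higher and 2 lower (0.063), with both 8 higher and 2 lower (0.19) and with IL-4 4 higher (0.069, or −0.0035 without library e, again with 4 higher), and the others were not called. The lower shares with each of the 4 stimuli, and the higher one with IFN-γ, were below those of all genes. *Socs1* rose with all 4 stimuli, by 0.77, 1.34, 1.30 and 1.52 on the log2 scale in the order *E. coli*, IFN-γ, both and IL-4. *Socs3*, a target of STAT3, rose by 2.00, 2.31 and 1.32 with *E. coli*, both and IL-4, and with IFN-γ its change of 0.57 (SE 0.29) was not called although *Stat3* rose. *Cish*, a target of STAT5 and STAT6, rose by 0.66, 0.54 and 0.54 with *E. coli*, both and IL-4. *Usp18*, which binds the type I interferon receptor together with STAT2, rose by 0.51 with IL-4 only. *Socs2*, a STAT5 target, rose by 0.94 with *E. coli* and fell by 1.18 with IFN-γ and by 1.02 with both.

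The members lie on 3 chromosomes of GRCm38 (GENCODE M21). *Stat5b* (ENSMUSG00000020919, minus strand, chr11:100780731-100850724), *Stat5a* (ENSMUSG00000004043, plus strand, chr11:100859351-100885169) and *Stat3* (ENSMUSG00000004040, minus strand, chr11:100885098-100939540) form a cluster. *Stat6* (ENSMUSG00000002147, plus strand, chr10:127642986-127660957) and *Stat2* (ENSMUSG00000040033, plus strand, chr10:128270559-128292849) lie 609.6 kb apart. *Stat4* (ENSMUSG00000062939, plus strand) is at chr1:51987148-52107189. *Stat5b* and *Stat5a* lie 8.63 kb apart, and the 3′ ends of *Stat5a* and *Stat3* overlap by 72 bases on opposite strands. The 3′ end of *Stat6* overlaps that of *Nab2* by 40 bases, also on opposite strands. How strand was used in counting is not stated, so reads from these ends cannot be assigned with certainty. *Stat4* shares 1033 exon bases with *Gm28177* on the same strand, ending 4150 bases upstream of its 3′ end. The best match between transcripts of *Stat5a* and *Stat5b* spanned 2355 bases at 90.2% identity, and no member matched another gene at 95% over 200 bases.

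**Figure D3:**
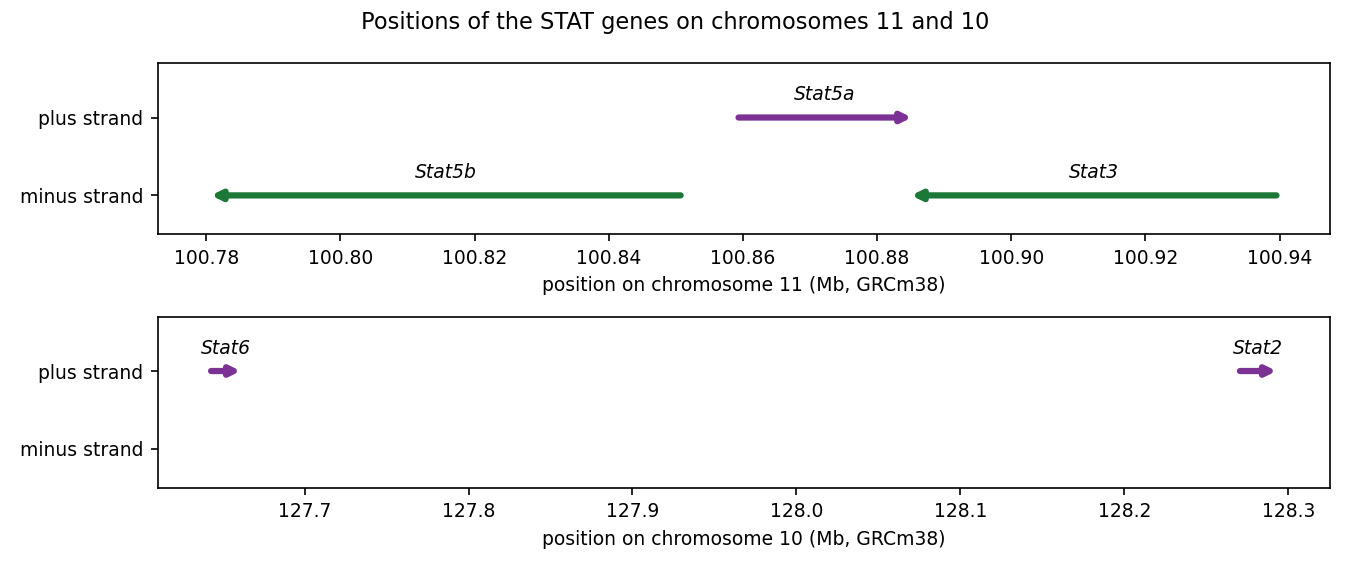
Positions of 5 STAT genes on chromosomes 11 and 10 of GRCm38, in Mb, with arrows along the strand of each gene. *Stat5b*, *Stat5a* and *Stat3* lie next to each other on chromosome 11, and *Stat6* and *Stat2* lie 609.6 kb apart on chromosome 10.

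Promoters of the members were searched for the letters that STAT complexes are known to bind. RefSeq windows of GRCm38.p6, from 250 bases before to 50 after a gene's start, matched 6 of 6 members with 9 windows. The motifs were TTCNNNGAA and TTCNNNNGAA, each its own reverse complement, and GAAANNGAAA with its reverse complement TTTCNNTTTC, so both strands were read. Of 32817 promoters 8.29% hold the first, 6.94% the next, 3.43% the last and 17.3% any of them. Among the member windows 2 hold a match. That of *Stat2* holds TTTCAGTTTC at chr10:128270276-128270285 and, 2 bases on, TTCCCTAGAA at chr10:128270288-128270297, with no overlap between them, and 1 of *Stat4* holds GAAAGTGAAA at chr1:52008143-52008152. A match is a description of the letters, not a binding site. The windows of *Stat2* (chr10:128270248-128270547, plus strand) and *Stat4* (chr1:52007990-52008289, plus strand) are printed for these letters, in capitals, and those of *Stat3* (chr11:100939491-100939790, minus strand) and *Stat6* (chr10:127642736-127643035, plus strand), which rose with IFN-γ, for comparison. In the last pair these letters are not in the window, nor are they in either window of *Stat5b*, which rose with IFN-γ too.
Stat2: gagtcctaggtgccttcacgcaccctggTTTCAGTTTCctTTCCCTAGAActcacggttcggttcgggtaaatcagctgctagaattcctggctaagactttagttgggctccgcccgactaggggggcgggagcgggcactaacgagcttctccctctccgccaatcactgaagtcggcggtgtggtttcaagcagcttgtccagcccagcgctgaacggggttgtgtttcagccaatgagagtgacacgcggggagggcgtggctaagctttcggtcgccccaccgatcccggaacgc
Stat4: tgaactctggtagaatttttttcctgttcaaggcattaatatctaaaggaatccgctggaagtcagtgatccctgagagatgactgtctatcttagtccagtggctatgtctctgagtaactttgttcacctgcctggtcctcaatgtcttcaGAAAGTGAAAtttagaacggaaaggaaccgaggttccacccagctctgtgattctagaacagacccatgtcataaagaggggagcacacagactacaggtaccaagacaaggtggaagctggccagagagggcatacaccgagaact
Stat3: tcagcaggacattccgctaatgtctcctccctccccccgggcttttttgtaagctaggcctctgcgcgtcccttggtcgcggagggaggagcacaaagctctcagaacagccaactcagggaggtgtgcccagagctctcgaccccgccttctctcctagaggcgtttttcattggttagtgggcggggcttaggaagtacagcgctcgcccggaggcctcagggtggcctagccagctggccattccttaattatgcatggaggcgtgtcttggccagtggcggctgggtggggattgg
Stat6: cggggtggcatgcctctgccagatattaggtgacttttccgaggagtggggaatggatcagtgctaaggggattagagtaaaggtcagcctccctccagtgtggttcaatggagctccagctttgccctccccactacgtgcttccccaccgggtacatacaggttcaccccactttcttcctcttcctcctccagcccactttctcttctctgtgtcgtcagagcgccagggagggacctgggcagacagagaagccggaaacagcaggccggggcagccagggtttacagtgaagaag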

How the data were processed

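RNA of 18 eosinophil libraries was counted per Ensembl gene by the authors, and the deposited values are raw counts. The study's methods name CEL-Seq2, TopHat2 2.1.0, HTSeq 0.6.1 and GRCm38, and also fastp 0.20.1 and STAR 2.7.2a, without saying which libraries each served. Summary entries that name no gene, 21.1% to 39.4% of the counts in the 12-library set, were left out of totals. Members were matched by Ensembl identifier, and the members and gene lists were chosen with earlier results of these data known. Other STAT genes and 1 marker gene are not analysed here. Genes passing edgeR's filter on low counts were fitted per set by edgeR 4.0.16 in R 4.3.3 with TMM factors and the quasi-likelihood test, with Benjamini-Hochberg adjustment over all genes tested. Differences between IL-4 and other responses came from a fit of all 18 libraries. Alternatives were DESeq2 1.42.0, its size factors, other filters, other sets of libraries, a replicate block, a factor of 2, leaving out each library and, chosen after seeing the data, library totals, a correction for repeated identifiers, the same 9 libraries without the block and list genes at 3 or more counts in every unstimulated library. Named list genes were the 2 largest called rises and decreases per list at 5 or more normalized CPM, of which not all are printed. *Irf9*, *Cish*, *Usp18*, *Jak1*, *Jak3*, interferon receptor chains, *Siglecf*, *S100a8*, *Ly6g*, *Xcr1*, *Adgre1*, *Lyz2*, *C1qb*, the B cell markers and uncalled or further values of named genes were added after their values were seen.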

Additional observations from a re-analysis of the deposited data

Results flagged for a closer look

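*Stat2* drew attention because *E. coli* acted on it differently in the presence and in the absence of IFN-γ. Alone, *E. coli* lowered *Stat2* by a log2 change of −0.95, and beside IFN-γ its effect was 0.097. The difference between these effects was 1.05 on the log2 scale (SE 0.15, adjusted p = 0.000227, edgeR's quasi-likelihood test on 12 libraries). It was called in each of the 18 alternatives run, where it ranged from 0.96 to 1.14 and its adjusted p from 1.48e-06 to 0.00192. The 4 tested B cell markers were called in the same comparison and direction, at 2.32 to 2.92. The cause was not tested.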

How the results depend on the processing

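Among the log2 changes of members, 960 kept their direction and their side of the threshold, 70 were weaker, 15 were stronger and 1 reversed. Leaving out single libraries accounts for 37 of the weaker and 7 of the stronger ones. The cause was not tested for any of the changes below. At least 10 counts in every library left *Stat4* without a value in the first set.

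Pooling all 6 unstimulated libraries reversed *Stat3* with *E. coli* to −0.14, and its adjusted p ran from 0.00221 to 0.711 over the alternatives. The same setting weakened *Stat6* with *E. coli* (−0.26), *Stat4* and *Stat5b* with IFN-γ (−0.66 and 0.49) and *Stat5b* with both (0.40), and *Stat4* with IL-4 was called at −1.35. Here the unstimulated libraries come from both sets, so each value also holds any difference between the sets. Using only the 6 libraries of the groups compared, *Stat4* was called with *E. coli* at −0.75.

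Asking for a factor of 2 as well ended the calls with *E. coli* of *Stat2* (−0.95), *Stat3* (0.41) and *Stat6* (−0.32). With IFN-γ it ended those of *Stat2* (0.38), *Stat5b* (0.70) and *Stat6* (0.49), with both those of *Stat2* (0.48), *Stat5b* (0.59) and *Stat6* (0.53), and with IL-4 that of *Stat2* (0.78). It left 1018, 1170, 2201 and 477 genes called with *E. coli*, IFN-γ, both and IL-4 in place of 2983, 3104, 4827 and 1093.

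Library totals, chosen after seeing the data, weakened *Stat2* and *Stat5b* with IFN-γ (0.21 and 0.53) and with both (0.23 and 0.34), and *Stat5b* between IFN-γ and *E. coli* (0.48). *Stat4* with both was called at −0.86. For IL-4 minus IFN-γ *Stat2* was called (0.63) and *Stat5b* (−0.62) and *Stat6* (−0.26) were not, and for IL-4 minus both *Stat2* was called (0.61) and *Stat5b* (−0.43) and *Stat6* (−0.22) were not. The median of all genes moved to −0.25 for both against *E. coli* and to −0.17 for IFN-γ against *E. coli*. The share of called genes that were higher went from 50.6% to 34.6% for both against IFN-γ, from 52.9% to 27.5% for both against *E. coli*, from 54.8% to 35.3% for IFN-γ against *E. coli* and from 55.1% to 44.7% for the interaction.

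With no filter on low counts *Stat6* with *E. coli* (−0.28) and for IL-4 minus IFN-γ (−0.52) was not called, and *Stat5b* between both and *E. coli* was (0.49). At 10 or more counts in every library *Stat5b* with both (0.53) was not called. For IL-4 minus IFN-γ *Stat2* was called (0.48) and *Stat5b* (−0.78) and *Stat6* (−0.41) were not, and for IL-4 minus both *Stat2* was called (0.40) and *Stat5b* was not (−0.65). *Stat5b* for IL-4 minus both was also not called with DESeq2 size factors (−0.81), with DESeq2 (−0.82) or with the correction for repeated identifiers (−0.77), which was chosen after seeing the data.

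Libraries of the stimuli of the first set share replicate numbers. Each of the 9 was set against the libraries of both other stimuli, and in 9 of these 18 cases the closest had the same number. Of 9 correlations between same-number libraries 4 passed 0.1, from −0.045 to 0.33, so pairing was used only as an alternative. A replicate block called 1468 genes for both against IFN-γ, 3451 for both against *E. coli* and 2768 for IFN-γ against *E. coli*, where the same 9 libraries without the block called 1159, 3162 and 2469. Without the block *Stat5b* between IFN-γ and *E. coli* was not called (0.64).

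Leaving out single libraries moved changed results over these ranges. With *E. coli* they were −0.94 to −0.56 for *Stat4* and −0.38 to −0.25 for *Stat6*. With IFN-γ they were 0.29 to 0.46 for *Stat2*, −1.78 to −0.89 for *Stat4* and 0.55 to 0.89 for *Stat5b*. *Stat5b* with both ranged from 0.31 to 0.81 and *Stat3* with IL-4 from 0.22 to 0.53. *Stat5b* ranged from 0.22 to 0.74 between both and *E. coli* and from 0.48 to 0.81 between IFN-γ and *E. coli*, and the interaction of *Stat4* from 1.06 to 1.95. For IL-4 minus IFN-γ the ranges were 0.27 to 0.46 for *Stat2*, −1.06 to −0.62 for *Stat5b* and −0.68 to −0.35 for *Stat6*. For IL-4 minus *E. coli* *Stat6* ranged from 0.15 to 0.48, and for IL-4 minus both *Stat5b* from −1.02 to −0.50.

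Numbers of genes called also changed. With IL-4 the main count was 1093, and 505, 512 and 543 were called without IL-4 library 1, 2 or 3, against 1425 without unstimulated library e and 1885 in the fit of all 18 libraries. For both against IFN-γ the count fell from 1207 to 751 without IFN-γ library 1 and 784 without joint library 2. For the interaction it fell from 486 to 281 without unstimulated library a, 299 and 288 without *E. coli* library 1 or 2 and 307 without joint library 2.

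Mean levels of *Stat2*, *Stat3* and *Stat6* moved by more than 1 SD in 9 group means when TMM factors were left out. Depth limits *Stat4* and *Stat5a* most, at 7 to 44 and 12 to 26 counts per library in the first set.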
